A study of Homo sapiens with 12 samples.

Results

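The members of this gene set were ferritin, heme oxygenase and target genes of the transcription factor NRF2: FTL, FTH1, HMOX1, BLVRB, TFRC, NQO1, GCLM, GCLC, TXNRD1 and SRXN1. They were chosen with earlier results of these data known. Their probe sets were found by gene symbol, 10 genes against 19775 genes with a probe set of 1 symbol on the arrays. The annotation given held a probe set for 9 of the 10; FTH1 was not analysed here. The 9 genes had 21 probe sets, of which 17 were bright enough to be tested, including 1 representative for each gene (its probe set with the highest mean signal). The iron and heme members tested were FTL, HMOX1, BLVRB and TFRC, and the glutathione, thioredoxin and quinone members were NQO1, GCLM, GCLC, TXNRD1 and SRXN1.

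The arrays, 12 in all with 3 in each of 4 groups, measured RNA in stable HEK cells, a line from human embryonic kidney. The first group, called WT with tetracycline, carried a wild-type TRPM7 channel under a tetracycline-inducible system and received 1 µg tetracycline for 72 h. Untreated WT cells of the same line received none. Mutant cells with tetracycline carried TRPM7 lacking its whole C-terminal kinase domain (TRPM7DKD), which the series design names as the nonfunctional control for the inducer, and received the same treatment. Untreated mutant cells made up the last group. All 4 groups were grown with 10% fetal bovine serum and 5 µg/mL blasticidin. The labels do not say how many clones a line came from, or whether the 3 replicates of a group were separate cultures, so that p-values measure the spread between these samples, which may be technical.

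Cells store iron in ferritin, a shell of light chains (FTL) and heavy chains (FTH1), and take it up through the transferrin receptor TFRC. HMOX1 opens heme to release iron, carbon monoxide and biliverdin, and BLVRB is a reductase of biliverdin and flavins. Iron regulatory proteins bind a hairpin in ferritin RNA and limit its translation when iron is short, while the same proteins stabilise TFRC RNA. NRF2, the product of NFE2L2, binds antioxidant response elements together with small MAF proteins, KEAP1 directs its degradation, and BACH1 competes for the same elements at HMOX1 and ferritin genes. GCLC and GCLM are the catalytic and modifier subunits of the enzyme that starts glutathione synthesis. TXNRD1 reduces thioredoxin, SRXN1 repairs over-oxidised peroxiredoxins, and NQO1 reduces quinones.

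The sequences below show the control elements that could be read near the start sites of members, from RefSeq promoter windows of GRCh38.p14 (250 bases before to 50 after a start). The windows matched 8 of the 10 genes; FTH1 and HMOX1 were not matched. FTL is shown because its transcript carries the iron-responsive hairpin loop, searched as C, 5 bases and CAGTG on the sense strand and marked in capitals at bases 33 to 43 after the start (chr19:48965333-48965358, plus strand).
FTL iron-responsive loop: gtctcttgCTTCAACAGTGtttggac
GCLM and TXNRD1 are shown because they held the core TGACNNNGC of the antioxidant response element, searched on both strands and marked in capitals. The GCLM match lay at bases -34 to -26 from the start (chr1:93909440-93909480, minus strand, with the core on the opposite strand of the transcript).
GCLM response element core: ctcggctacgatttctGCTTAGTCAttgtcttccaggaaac
In TXNRD1 a match lay at bases -99 to -91 from 1 start (chr12:104215664-104215704, plus strand).
TXNRD1 response element core: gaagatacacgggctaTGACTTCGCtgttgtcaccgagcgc
Another lay at bases -102 to -94 from a second start (chr12:104286914-104286954, plus strand, with the core on the opposite strand).
TXNRD1 response element core at another start: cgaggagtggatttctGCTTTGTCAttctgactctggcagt
A further TXNRD1 match at bases -8 to 1 of the first start runs into the transcript and is not printed. The core was present in 13.3% of 35116 windows of all genes and the loop pattern in 10.2%, so that a match alone is a description of letters. In the windows of BLVRB, TFRC, NQO1, GCLC and SRXN1 neither pattern was present. Sequence farther upstream and the rest of the transcripts were not searched, so that these genes may hold such elements elsewhere.

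The arrays of the WT line varied more than those of the mutant line. The median SD over probe sets was 0.326 on the log2 scale for WT with tetracycline and 0.299 for untreated WT, against 0.19 for mutant with tetracycline and 0.174 for untreated mutant cells. The 3′ minus 5′ difference of the actin control, a sign of RNA quality, was 1.05 ± 0.27 for WT arrays and 0.259 ± 0.026 for mutant arrays (log2, SD, n = 6 each; exact permutation p = 0.00216, two-sided, the smallest possible). It did not move with tetracycline within either line beyond the spread (exact p = 0.6 and 0.5; 3 against 3 arrays cannot go below 0.1). For the GAPDH control the same 3′ minus 5′ difference was 0.0831 ± 0.063 for WT and 0.0745 ± 0.037 for mutant arrays (exact permutation p = 0.779, two-sided). The replicate 3 arrays had the lowest mean signal of the poly-A spike controls in every group, at 8.40 and 7.64 in WT with and without tetracycline and at 8.40 and 8.32 in mutant cells with and without it. Of 3 tested TRPM7 probe sets, none rose with tetracycline in the WT line: the log2 changes were -0.85, 0.11 and -2.00 (adjusted p = 0.0643, 0.915 and 0.0411), and whether these probes match the transgenes is not given in the sources used here. All 6 HEK marker genes were above the brightness limit, with IRS4 lower in WT with tetracycline than in untreated WT by a log2 change of -1.56. In that comparison 1 of the 6 was called higher and 1 lower, with changes up to 0.65 and a median of 0.05. Of the blood markers with a probe set 1 of 4 passed that limit, and of the fibroblast and endothelial markers 2 of 7 did, with a summed signal of 1423 to 1441 in WT with tetracycline, 748 to 1114 in untreated WT, 861 to 1103 in mutant with tetracycline and 868 to 942 in untreated mutant cells. Their part in the results below was not tested.

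With tetracycline in the WT line, 3 of the 4 iron and heme members rose: FTL, HMOX1 and BLVRB. None of the 5 glutathione, thioredoxin and quinone members passed the test in either direction on its representative probe set. Over all 13067 genes tested, 9.41% rose and 8.57% fell in this comparison. The median log2 change was 1.00 for the iron and heme members and 0.14 for the other members, beside 0.03 over all genes. With the mean of all tested probe sets of a gene in place of the brightest, these medians were 1.02 and -0.05. Because the members were chosen with earlier results of these data known, these counts and medians are a description. The arrays measured pooled RNA of many cells, in which more RNA per cell and more cells holding it cannot be told apart. Changes are given as log2 change ± SE with p-values from a limma fit of all 12 arrays, adjusted by the Benjamini-Hochberg method over 29553 probe sets, and a change passed at an adjusted p under 0.05.

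FTL, the light chain of ferritin, separated the treated from the untreated WT arrays by far more than the spread within either group. Its representative 212788_x_at had log2 signals of 14.42, 14.43 and 14.35 in WT with tetracycline, against 13.45, 13.29 and 13.46 in untreated WT. Those groups did not overlap. In mutant cells with tetracycline it had 13.40, 13.47 and 13.33, against 13.17, 13.16 and 13.16 in untreated mutant cells, again without overlap but with a much smaller gap. In deposited signal units the probe set read 21917, 22138 and 20856 in WT with tetracycline and 11209, 10021 and 11237 in untreated WT. The WT change was 1.00 ± 0.0908 (adjusted p = 6.34e-05; 95% interval 0.81 to 1.19).

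The other FTL probe set, 213187_x_at, gave 13.67, 13.90 and 13.92 in WT with tetracycline, against 12.62, 12.65 and 12.95 in untreated WT. Its change was 1.09 ± 0.12 (adjusted p = 0.000153), so that both probe sets of the light chain rose by nearly the same amount. Both carry the suffix x_at, by which the platform marks probes that can also match other transcripts, and ferritin has many processed pseudogenes, so that the share of FTL itself in these signals is uncertain. Under the 21 alternatives tried the change of the representative stayed between 0.93 and 1.06 and passed each time.

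HMOX1, the inducible heme oxygenase, had the largest change among the members. It had 10.77, 12.10 and 10.81 in WT with tetracycline, against 8.79, 8.85 and 9.59 in untreated WT. All 3 treated arrays were above all untreated ones, with replicate 2 far above the other two. The change was 2.15 ± 0.307, a 4.43-fold higher signal (adjusted p = 0.000558; 95% interval 1.49 to 2.80). It was 1.71 without replicate 2 of WT with tetracycline (adjusted p = 0.00173), and it passed under all 21 alternatives, between 1.71 and 2.61.

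BLVRB, a reductase of biliverdin and flavins, had 11.86, 12.58 and 12.63 in WT with tetracycline, against 10.86, 11.77 and 11.44 in untreated WT. The treated arrays were again all above the untreated ones, but replicate 1 was low in both groups. The change was 1.00 ± 0.222 (adjusted p = 0.0076; 95% interval 0.53 to 1.48). The call was lost when only the WT arrays were fitted, with the same change and an adjusted p of 0.0621, and when all 4 replicate 3 arrays were dropped, with 0.90 and an adjusted p of 0.155. BLVRA, the main biliverdin reductase, did not pass in the WT line. Its change was 0.09 with only the WT arrays fitted (limma adjusted p = 0.779).

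TFRC, the receptor that brings in transferrin-bound iron, did not pass. Its representative 208691_at had 12.78, 11.94 and 12.85 in WT with tetracycline, against 13.22, 12.27 and 13.19 in untreated WT. Replicate 2 was low in both groups, and the groups overlapped. Each treated array was below the untreated array of the same number, and pairing within the line was not tested. The change was -0.37 ± 0.249 (adjusted p = 0.333; 95% interval -0.90 to 0.16). It passed without replicate 2 of untreated WT (-0.68, adjusted p = 0.0452) and with arrays weighted by their spread (-0.72, adjusted p = 0.0414). The other tested TFRC probe sets had changes of -0.23 and -0.29, neither of which passed, and the remaining 2 were too dim to test.

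**Figure D1:**
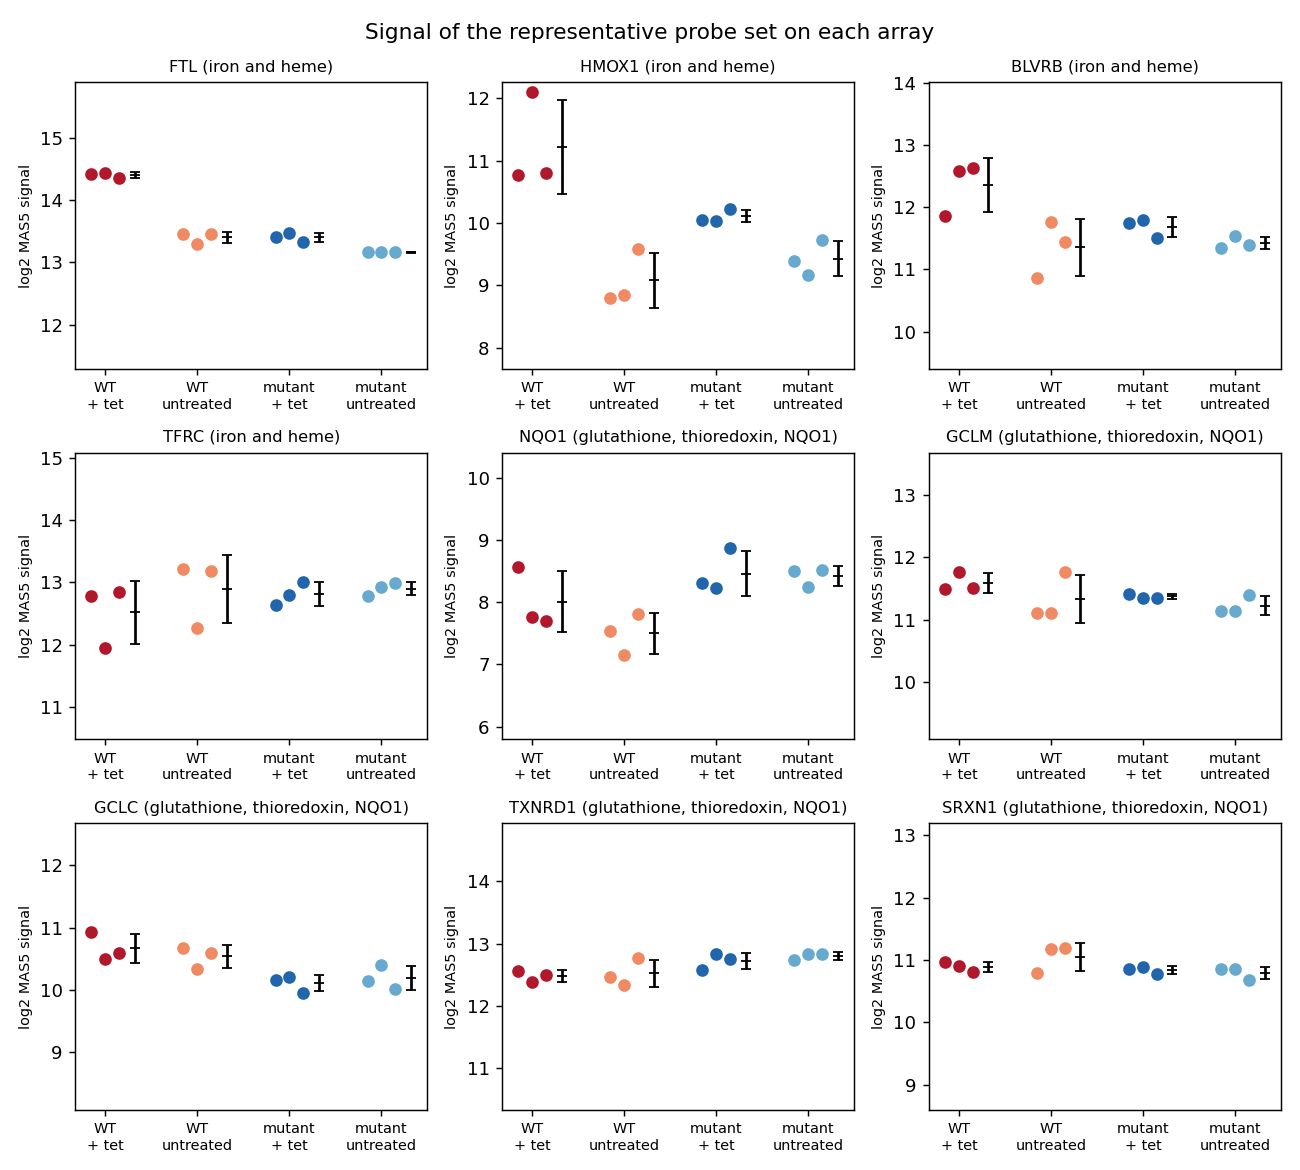
Log2 signal of each member's representative probe set (vertical axis) on every array (points), by group along the horizontal axis, with the group mean and SD as a bar beside the points (n = 3 each); all panels span the same number of log2 units. FTL, HMOX1 and BLVRB in WT with tetracycline lie above untreated WT without overlap, while the groups of TXNRD1, SRXN1, GCLC and GCLM overlap.

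Among the glutathione and thioredoxin members, the levels of WT cells with and without tetracycline overlapped on each representative. TXNRD1, the thioredoxin reductase, had 12.56, 12.38 and 12.50 in WT with tetracycline, against 12.46, 12.34 and 12.77 in untreated WT. Its change was -0.04 ± 0.124 (adjusted p = 0.85), and the 95% interval of -0.31 to 0.22 lies below the whole interval of FTL. SRXN1, the sulfiredoxin, had 10.97, 10.90 and 10.81 in WT with tetracycline, against 10.79, 11.17 and 11.19 in untreated WT. Its change was -0.16 ± 0.137 (adjusted p = 0.468; 95% interval -0.45 to 0.14), with all treated arrays between the lowest and the other two untreated ones.

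GCLM, the modifier subunit of glutamate-cysteine ligase, had 11.49, 11.77 and 11.50 in WT with tetracycline, against 11.11, 11.10 and 11.77 in untreated WT. Replicate 3 of untreated WT was as high as the highest treated array, and the change of 0.26 ± 0.17 did not pass (adjusted p = 0.318; 95% interval -0.10 to 0.62). Without that array it was 0.48 and passed (adjusted p = 0.0456). The other GCLM probe sets had changes of -0.11 and -0.29, and neither passed.

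The probe sets of GCLC, the catalytic subunit, disagreed. The representative 202923_s_at had 10.93, 10.49 and 10.59 in WT with tetracycline, against 10.68, 10.33 and 10.60 in untreated WT, and its change of 0.14 ± 0.166 did not pass (adjusted p = 0.617; 95% interval -0.22 to 0.49). The other tested probe set, 202922_at, had 9.73, 9.09 and 9.06 in WT with tetracycline, against 9.96, 9.92 and 9.96 in untreated WT. It fell by 0.65 ± 0.187 (adjusted p = 0.0277), without overlap between the groups. That call was lost when only the WT arrays were fitted (adjusted p = 0.136), without replicate 2 or 3 of WT with tetracycline (adjusted p = 0.109 and 0.106), and without replicate 1 or 3 of untreated WT (adjusted p = 0.0594 and 0.0692). Dropping all 4 replicate 3 arrays gave an adjusted p of 0.261.

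NQO1, the quinone reductase, did not pass. Its representative 210519_s_at had 8.57, 7.76 and 7.70 in WT with tetracycline, against 7.54, 7.15 and 7.81 in untreated WT, and the groups overlapped. The change was 0.51 ± 0.275 (adjusted p = 0.223), with a 95% interval of -0.08 to 1.10 that is too wide to tell a doubling from no change. The other NQO1 probe sets were near the brightness limit, at group means of 5.13 to 7.07, and their changes of -0.11 ± 0.384 and 0.58 ± 1.1 did not pass.

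**Figure D2:**
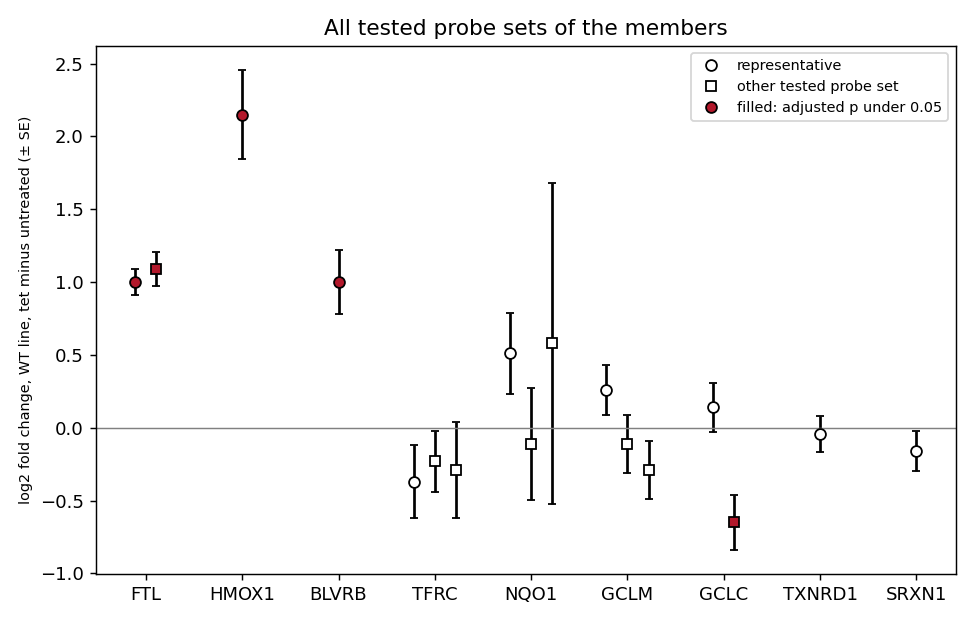
Log2 change with tetracycline in the WT line (vertical axis, ± SE of the limma fit) for every tested probe set of each member (horizontal axis); circles are representatives, squares other probe sets, and filled symbols have an adjusted p under 0.05. Both FTL probe sets lie near 1, while those of GCLC and GCLM lie on both sides of 0.

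In the mutant line no member passed, and none of the 13067 genes did (0%); the smallest adjusted p of any probe set was 1, with 620 of 29553 probe sets (2.1%) under an unadjusted p of 0.05 in the limma fit. Array weights gave 4 calls over all probe sets, and none was a member. HMOX1 had 10.05, 10.04 and 10.22 in mutant cells with tetracycline, against 9.39, 9.17 and 9.73 in untreated mutant cells. These groups did not overlap, and the change was 0.68 ± 0.307 (adjusted p = 1; 95% interval 0.02 to 1.33). FTL changed by 0.24 (95% interval 0.04 to 0.43) and BLVRB by 0.26 (-0.21 to 0.74), neither passing after adjustment. These SEs and intervals share their spread with the noisier WT arrays. With only the mutant arrays in the limma fit, the adjusted p was 0.301 for HMOX1, 0.544 for FTL and 0.608 for BLVRB. The median over the iron and heme members was 0.25, against 0.04 for the other members and 0.02 over all genes. TXNRD1 had -0.08, GCLC -0.08, GCLM 0.15, NQO1 0.04 and SRXN1 0.05 on the log2 scale.

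Whether the lines differed in their response was tested as the change in the WT line minus the change in the mutant line. FTL was the only member to pass on its representative, with a difference of 0.76 ± 0.128 (adjusted p = 0.0407; 95% interval 0.49 to 1.04); it was 1 of 10 genes with a higher response in the WT line, 0.0765% of those tested. The second FTL probe set had 0.87 ± 0.17 (adjusted p = 0.057). Without any single array other than replicate 1 of WT with tetracycline or of untreated WT the representative's call was lost, with differences of 0.71 to 0.80 over all single omissions and adjusted p-values of 0.0566 to 0.157 where it was lost. It was also lost with no brightness filter (adjusted p = 0.0708), with quantile normalization (0.70, adjusted p = 0.0654), without the variance trend (adjusted p = 0.133) and with all replicate 3 arrays dropped (adjusted p = 0.832).

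HMOX1 had the largest difference of responses among the members, 1.47 ± 0.434, and did not pass (adjusted p = 0.15; 95% interval 0.55 to 2.40). BLVRB had 0.74 ± 0.314 (adjusted p = 0.301; 95% interval 0.07 to 1.41). Both passed without replicate 1 of WT with tetracycline (1.70, adjusted p = 0.0215, for HMOX1 and 0.99, adjusted p = 0.0315, for BLVRB) and with array weights (1.73, adjusted p = 0.0129, and 0.87, adjusted p = 0.0302). The array weights gave that same array the lowest weight, 0.267. Each gene passed in only these 2 of 20 settings. The differences went down to 1.03 for HMOX1 and 0.49 for BLVRB, and the adjusted p-values up to 0.832 and 0.882. The other members had differences between -0.28 for TFRC and 0.46 for NQO1, with adjusted p-values of at least 0.626.

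**Figure D3:**
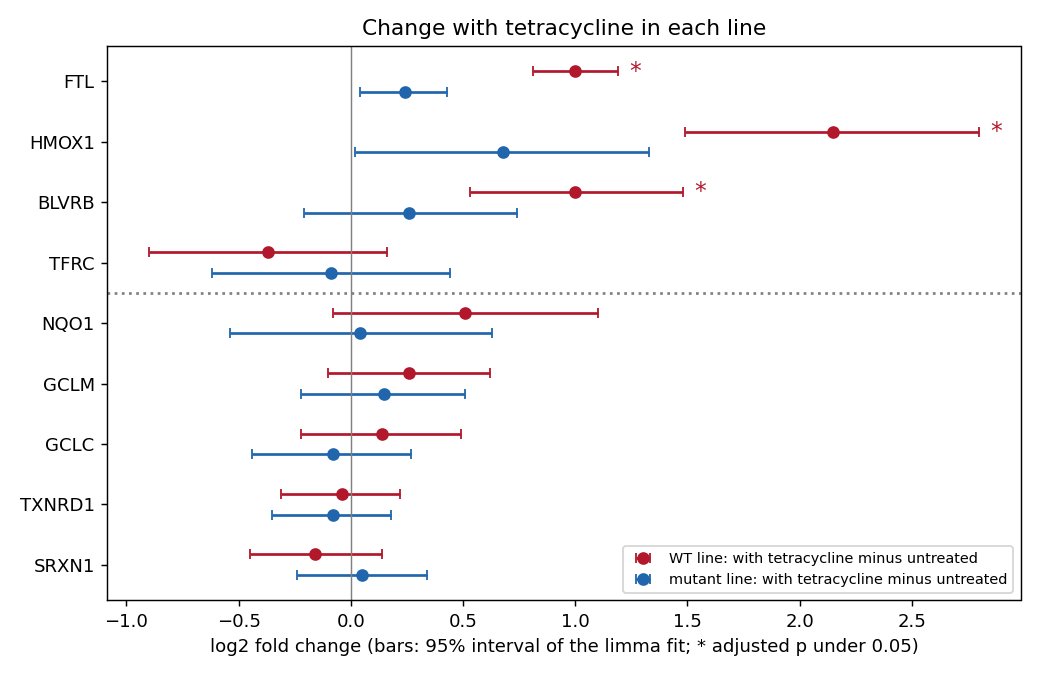
Log2 change with tetracycline (horizontal axis, 95% interval of the limma fit) for each member's representative (rows; iron and heme members above the dotted line), for the WT line (red) above the mutant line (blue); asterisks mark an adjusted p under 0.05. FTL, HMOX1 and BLVRB lie to the right of 0 in the WT line, and every interval of the other 5 members below the line includes 0.

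Without tetracycline, NQO1 was the only member to pass between the lines. It had 7.54, 7.15 and 7.81 in untreated WT, against 8.50, 8.24 and 8.52 in untreated mutant cells, without overlap. The difference was -0.92 ± 0.275 (adjusted p = 0.0402; 95% interval -1.51 to -0.33), in a comparison in which 5.84% of genes were higher and 6.82% lower in WT. The other NQO1 probe sets had differences of 0.26 and -0.18, which did not pass. The call was lost without replicate 1 or 2 of untreated WT (adjusted p = 0.0788 and 0.124), without replicate 1 or 2 of mutant with tetracycline (0.0552 and 0.0525) and without any replicate of untreated mutant cells (0.125, 0.0808 and 0.119), and also with no filter (0.072), quantile normalization (0.136), no trend (0.0583) or without the replicate 3 arrays (0.0962).

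The iron and heme members had median differences between the untreated lines of -0.03, beside -0.02 over all genes. FTL had 0.24 ± 0.0908 (adjusted p = 0.102) and HMOX1 -0.35 ± 0.307 (adjusted p = 0.495). BLVRB differed by -0.06 (adjusted p = 0.891), and TFRC averaged 12.89 in untreated WT and 12.90 in untreated mutant cells (adjusted p = 0.996). Another TFRC probe set, 237215_s_at, had -0.71 ± 0.328 (adjusted p = 0.171), and it passed without replicate 3 of untreated WT (-1.16, adjusted p = 0.0129) and with the replicate block (adjusted p = 0.0481). TXNRD1 had -0.28 ± 0.124 (adjusted p = 0.155); it passed without replicate 3 of untreated WT (-0.40, adjusted p = 0.0454) and with quantile normalization (-0.43, adjusted p = 0.0278). The actin 3′ minus 5′ difference given above separates the same lines, while that of GAPDH does not. The part of RNA quality in these differences was not tested.

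With tetracycline in both lines, 4 members were higher in WT: FTL, HMOX1, BLVRB and GCLC. Of all genes 13.3% were higher and 14.9% lower in WT, and this comparison shares its WT arrays with the WT comparison above. The median difference was 0.84 for the iron and heme members and 0.05 for the others, beside -0.03 over all genes. FTL differed by 1.00 ± 0.0908 (adjusted p = 3.58e-05), HMOX1 by 1.12 ± 0.307 (adjusted p = 0.0151) and BLVRB by 0.67 ± 0.222 (adjusted p = 0.0362). GCLC had 10.93, 10.49 and 10.59 in WT with tetracycline, against 10.16, 10.20 and 9.95 in mutant cells with tetracycline, a difference of 0.57 ± 0.166 (adjusted p = 0.0211) without overlap. Its other tested probe set 202922_at differed by 0.03 (adjusted p = 0.912), and in untreated cells GCLC already had a difference of 0.35 ± 0.166 (adjusted p = 0.187).

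Of these 4 calls, FTL passed under all 21 alternatives. HMOX1 was lost without replicate 2 of WT with tetracycline (0.68, adjusted p = 0.0625) or replicate 2 of mutant with tetracycline (1.09, adjusted p = 0.0513). GCLC was lost without replicate 1 of WT with tetracycline (0.43, adjusted p = 0.0539), without replicate 3 of mutant with tetracycline (0.49, adjusted p = 0.0828) and with all replicate 3 arrays dropped (0.53, adjusted p = 0.151). BLVRB was lost without replicate 2 or 3 of WT with tetracycline (0.56 and 0.54, adjusted p = 0.132 and 0.135), without any replicate of mutant with tetracycline (adjusted p = 0.0742, 0.0653 and 0.12), and with no filter (0.0523), quantile normalization (0.0701), no trend (0.0812) or without the replicate 3 arrays (0.45, adjusted p = 0.373). NQO1 had -0.45 ± 0.275 (adjusted p = 0.235), and it passed without replicate 1 of WT with tetracycline (-0.73, adjusted p = 0.041). The TFRC probe set 237215_s_at had -0.89 ± 0.328 (adjusted p = 0.0563) and passed in 8 of the 21 alternatives, among them the fit of only these arrays (adjusted p = 0.0267) and those without replicate 3 of WT with tetracycline (-1.10, 0.0439), or replicate 2 or 3 of untreated WT (0.0275 and 0.0145). The representative had -0.28 ± 0.249 (adjusted p = 0.422), and it passed with array weights (-0.52, adjusted p = 0.0478).

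Other genes of iron handling were called in both directions. With tetracycline in the WT line, 3 of 16 tested genes of this list rose, 2 fell and 11 did not pass, with a median of -0.09, beside 9.41% higher, 8.57% lower and a median of 0.03 over all genes. STEAP3, a ferrireductase of endosomes, fell by 0.76 ± 0.167 (adjusted p = 0.00736), and SLC11A2, the divalent metal transporter, fell by 0.54 (adjusted p = 0.0199). PCBP2, an iron chaperone and RNA-binding protein, rose by 0.43 (adjusted p = 0.0137), and CYBRD1, a ferric reductase, by 1.02 ± 0.291 (adjusted p = 0.0275). All 4 calls were lost with only the WT arrays (adjusted p = 0.0676 to 0.124) and without the replicate 3 arrays. CYBRD1 was 0.68 without replicate 1 of untreated WT (adjusted p = 0.104), and it was also lost without replicate 3 of untreated WT or replicate 2 or 3 of WT with tetracycline. PCBP2 was lost without replicate 3 of WT with tetracycline (adjusted p = 0.0562) or of untreated WT (0.0553), and SLC11A2 without replicate 2 of WT with tetracycline (0.0544) or replicate 3 of untreated WT (0.063).

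In heme metabolism 1 of 14 tested genes rose and 2 fell in the WT line, with a median of -0.23. The shares over all genes were 9.41% higher and 8.57% lower. ALAS1, which makes the first precursor of heme, had 11.23, 11.05 and 11.01 in WT with tetracycline, against 10.32, 10.35 and 10.58 in untreated WT. It rose by 0.68 ± 0.129 (adjusted p = 0.00301), and by the WT arrays alone the adjusted p was 0.057. UROS, a later enzyme of heme synthesis, had 9.86, 8.63 and 8.41 in WT with tetracycline, against 10.69, 10.48 and 10.78 in untreated WT, and fell by 1.68 ± 0.272 (adjusted p = 0.00119). In mutant cells UROS stayed between 10.86 and 11.16 on all arrays, with a change of -0.10. The difference of responses for UROS was -1.58 ± 0.384 (adjusted p = 0.0931). It passed without replicate 1 of WT with tetracycline (-2.03, adjusted p = 0.000102) and with array weights (-1.87, adjusted p = 0.00109). The UROS change in the WT line was -1.34 without the replicate 3 arrays (adjusted p = 0.0741). FECH, which inserts iron into heme, fell by 0.42 ± 0.134 (adjusted p = 0.0448); leaving out any 1 array other than replicate 1 of WT with tetracycline ended that call (adjusted p = 0.0524 to 0.139).

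In the list of glutathione and thioredoxin genes 3 of 25 rose and 3 fell, with a median of 0.09. These shares lie near the 9.41% higher and 8.57% lower of all genes. SLC3A2, the heavy chain of the cystine transporter, rose by 0.92 ± 0.146 (adjusted p = 0.00112). CHAC1, which degrades glutathione, rose by 2.05 ± 0.344 (adjusted p = 0.00151). It had 9.81, 8.26 and 8.93 in WT with tetracycline, against 7.13, 6.54 and 7.19 in untreated WT. In the mutant line CHAC1 had 9.16, 8.88 and 8.29 with tetracycline and 7.74, 7.67 and 7.39 without, a change of 1.18 ± 0.344 that did not pass (adjusted p = 1). GGCT, a cyclotransferase of glutathione breakdown, fell by 0.57 (adjusted p = 0.00436), and GSS, glutathione synthetase, fell by 0.79 (adjusted p = 0.00843). With only the WT arrays the calls for GGCT (adjusted p = 0.0602) and GSS (0.0528) were lost, and those for SLC3A2 (0.0282) and CHAC1 (0.0241) were not. Without the replicate 3 arrays GGCT (adjusted p = 0.0582) and GSS (0.178) were again lost, while SLC3A2 (0.0352) and CHAC1 (0.0491) passed.

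Of the other NRF2 targets 1 of 18 rose and 3 fell in the WT line, with a median near 0, beside 9.41% higher and 8.57% lower over all genes. PGD, an NADPH-making enzyme of the pentose phosphate pathway, had 11.74, 11.49 and 11.60 in WT with tetracycline, against 12.09, 12.41 and 12.74 in untreated WT, and fell by 0.80 ± 0.144 (adjusted p = 0.00225). MGST1, a microsomal glutathione transferase, fell by 0.51 (adjusted p = 0.00738), and IDH1, an NADPH-making dehydrogenase, by 0.55 (adjusted p = 0.0315). SQSTM1, an autophagy receptor, rose by 0.50 ± 0.158 (adjusted p = 0.0428), but without replicate 2 of untreated WT it was 0.33 (adjusted p = 0.138), and without 10 of the 12 arrays in turn it did not pass. IDH1 did not pass without replicate 2 or 3 of either WT group (adjusted p = 0.0696 to 0.13). It was also lost with only the WT arrays (adjusted p = 0.126), no trend (0.0802) or without the replicate 3 arrays (-0.35, adjusted p = 0.333). PGD was lost without the replicate 3 arrays (-0.63, adjusted p = 0.0738), and MGST1 both without them (0.0802) and with only the WT arrays (0.0623).

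Among the regulators of NRF2 activity 2 of 9 rose and none fell in the WT line, beside 9.41% higher and 8.57% lower over all genes. MAFF, a small MAF partner, had 8.53, 9.88 and 10.26 in WT with tetracycline, against 7.23, 7.95 and 6.33 in untreated WT, and rose by 2.39 ± 0.436 (adjusted p = 0.00247). Its difference of responses, 2.11 ± 0.616, did not pass (adjusted p = 0.145), but it did without replicate 1 of WT with tetracycline (2.63, adjusted p = 0.00677) and with array weights (2.64, adjusted p = 0.00503). Without the replicate 3 arrays the WT change of MAFF was 1.61 (adjusted p = 0.117). NFE2L1, a relative of NRF2, rose by 0.66 ± 0.163 (adjusted p = 0.0138), and was lost without replicate 3 of WT with tetracycline (0.52, adjusted p = 0.0642) and with only the WT arrays (0.103). NFE2L2 had a change of 0.35 ± 0.164 (adjusted p = 0.156), KEAP1 of -0.49 ± 0.251 (adjusted p = 0.194) and BACH1 of 0.20 ± 0.206 (adjusted p = 0.534), none of which passed; KEAP1 passed without replicate 1 of WT with tetracycline (-0.82, adjusted p = 0.00855). In the mutant line no gene of the 5 lists passed, nor did any in the difference of responses with all arrays weighted equally. Without replicate 1 of WT with tetracycline, STEAP3 (-0.96, adjusted p = 0.0128), GSS (-0.98, 0.0175), PGD (-0.77, 0.0294) and NFE2L1 (0.80, 0.0282) passed that test, besides UROS and MAFF. With array weights STEAP3 (adjusted p = 0.00987), CYBRD1 (0.0353), GSS (0.0265), PGD (0.0106) and IDH1 (0.0433) passed, again besides UROS and MAFF. Those weights were lowest for the same replicate 1 of WT with tetracycline.

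**Figure D4:**
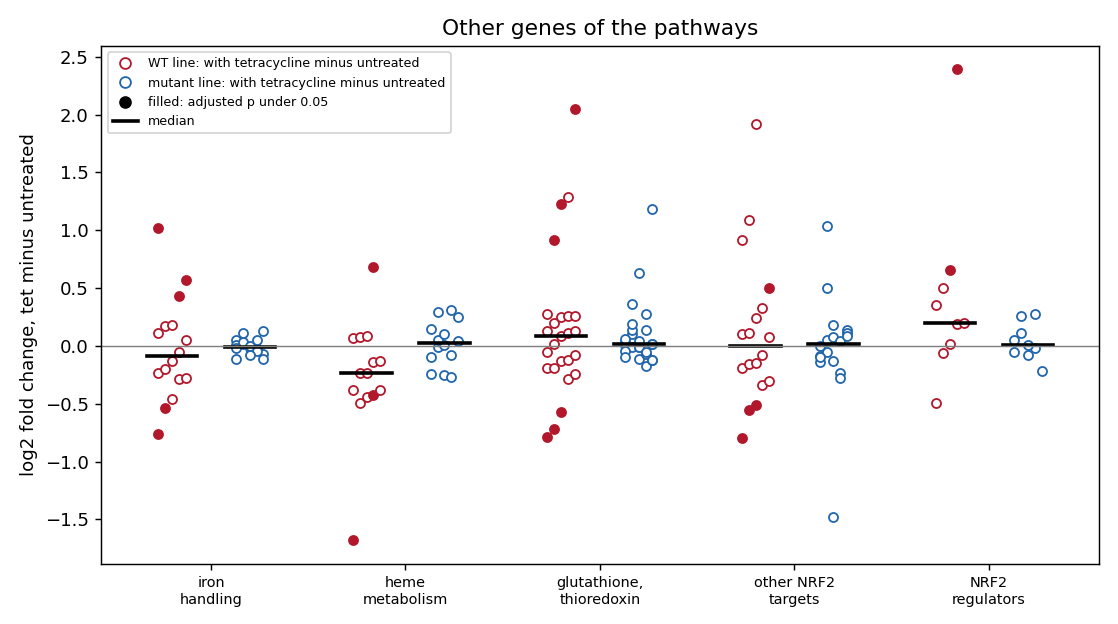
Log2 change with tetracycline (vertical axis) of the tested representatives of 5 gene lists (horizontal axis), for the WT line (red, left of each pair) and the mutant line (blue); filled points have an adjusted p under 0.05 and black lines are medians. Called genes lie on both sides of 0 in the first 4 lists of the WT line, and no point of the mutant line is filled.

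Between the lines, some genes of these lists differed both without and with tetracycline. SOD2, the mitochondrial superoxide dismutase, was higher in WT by 1.57 ± 0.289 in untreated cells (adjusted p = 0.00377) and by 1.95 ± 0.289 with tetracycline (adjusted p = 0.00042). MGST1 was higher in WT by 1.10 ± 0.113 (adjusted p = 0.000153) without and 0.72 ± 0.113 (adjusted p = 0.000619) with it. NCOA4, the receptor that takes ferritin to the lysosome, was higher by 0.51 ± 0.105 (adjusted p = 0.00728) and 0.50 ± 0.105 (adjusted p = 0.00381), and BLVRA, the main biliverdin reductase, by 0.59 ± 0.13 (adjusted p = 0.00985) and 0.58 ± 0.13 (adjusted p = 0.00536). The BLVRA call in untreated cells was lost without replicate 2 of untreated mutant cells (adjusted p = 0.0525).

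AKR1C3, an aldo-keto reductase, had 4.26, 4.26 and 4.35 in untreated WT, against 8.14, 7.30 and 7.98 in untreated mutant cells, without overlap. It was tested only because of its level in mutant cells, and the WT levels were below the brightness limit of 6.39, so that no size of the difference is given; its near-identical relatives may also share its probes. Untreated, PRDX1, a peroxiredoxin, was 0.41 higher in WT (adjusted p = 0.00745), UROD, of heme synthesis, 0.53 higher (adjusted p = 0.015) and GLRX5, of iron-sulfur cluster assembly, 0.38 higher (adjusted p = 0.0302). Without the replicate 3 arrays these 3 calls were lost (adjusted p = 0.0783, 0.086 and 0.129). UROD was also lost without replicate 1 or 2 of untreated mutant cells (adjusted p = 0.0738 and 0.06), and GLRX5 without replicate 1 or 2 of untreated WT (0.0775 and 0.0536) or any replicate of untreated mutant cells (0.0721, 0.104 and 0.101).

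With tetracycline in both lines, 4 of 16 iron handling genes were higher and 2 lower in WT, 1 of 14 heme genes higher and 3 lower, 4 of 25 glutathione and thioredoxin genes higher and 2 lower, and 2 of 18 other NRF2 targets higher and 7 lower. Over all genes 13.3% were higher and 14.9% lower, so that several of these shares, among them those of the heme genes, lie near that of all genes. The 7 lower NRF2 targets include AKR1C3, which was tested only because of its level in mutant cells, so that its direction was set by the filter. STEAP3 was lower in WT with a log2 difference of -0.89 ± 0.167 (adjusted p = 0.00183), UROS with -1.93 ± 0.272 (adjusted p = 0.000312) and PGD with -1.07 ± 0.144 (adjusted p = 0.000243). TXN, thioredoxin itself, was 0.70 ± 0.134 higher in WT (adjusted p = 0.00208). Of the regulators MAFF was higher by 2.79 ± 0.436 (adjusted p = 0.000582) and KEAP1 lower, with a log2 difference of -0.91 ± 0.251 (adjusted p = 0.0152), or -0.65 without replicate 2 of WT with tetracycline (adjusted p = 0.076). RBX1, a subunit of the ligase that uses KEAP1, was 0.41 ± 0.112 higher (adjusted p = 0.0148), or 0.31 without replicate 2 of mutant with tetracycline (adjusted p = 0.0788). The RBX1 call was also lost with quantile normalization (0.23, adjusted p = 0.0963), no trend (0.0522) or without the replicate 3 arrays (0.0545). KEAP1 was lost without those arrays too (-0.82, adjusted p = 0.143). Neither TXNRD1, at -0.24 ± 0.124 (adjusted p = 0.171), nor GCLM, at 0.22 ± 0.17 (adjusted p = 0.364), passed between the treated lines; with quantile normalization TXNRD1 did (-0.38, adjusted p = 0.0244).

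The genes whose signal followed that of FTL most closely over the 12 arrays, by Pearson's r as a description, were TMEM59 (0.983), EPS15 (0.978) and VEZF1 (0.975). TMEM59 averaged 13.03 in WT with tetracycline, 12.34 in untreated WT, 12.28 in mutant with tetracycline and 12.14 in untreated mutant cells; FTL averaged 14.40, 13.40, 13.40 and 13.16 in these groups. For HMOX1 the closest were ANXA1 (0.964), INTU (0.941) and SGCB (0.94). ANXA1, an annexin, averaged 12.51, 10.96, 11.67 and 11.08 in the same groups. The arrays share their groups and their scaling, so that many genes follow one another in this way.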

How the data were processed

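Total RNA from 12 samples was labelled with biotin and hybridised to Affymetrix arrays, per the labels' protocols. The deposited values are MAS5 intensities, per the submitters' processing notes, on a linear scale for 54675 probe sets, and their 2% trimmed mean is 500.1 on every array. The MAS5 version is not given in the sources used here. From the deposited intensity, log2 values were computed after setting the 2211 values under 1 (0.337%) to 1; no further normalization was applied. The 62 control probe sets were left out. Gene names came from the platform annotation: 41091 probe sets had 1 symbol, 1801 several and 11721 none, and genes were named from the first kind alone.

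Probe sets whose highest group mean exceeded 6.39, the median of all log2 values, were tested (29553). Group means of all 12 arrays were fitted with limma 3.58.1 in R 4.3.3 (eBayes with trend, two-sided, Benjamini-Hochberg over all tested probe sets); the script was tested on simulated data. A gene was represented by its probe set with the highest mean. The shared spread makes standard errors too small for the noisier WT arrays and too large for the mutant ones. Same-numbered arrays deviated together with correlations of -0.00534 to 0.253 over all pairs. Within the WT line they were 0.0418 to 0.253, and within the mutant line 0.0258 to 0.21. The labels do not say that a number marks a shared culture or day, so replicate numbers were not taken as pairs. The replicate block among the alternatives spans both lines, and pairing within a line was not tested. Precision is limited by the number of arrays.

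The members, pathway lists (iron handling, heme metabolism, glutathione and thioredoxin, other NRF2 targets, NRF2 regulators) and marker lists were chosen with earlier results of these data known. Besides all members, the text names up to 4 called genes with the smallest p of each list in the WT response, up to 2 in each other comparison, NFE2L2, KEAP1 and BACH1, and the 3 genes most correlated with FTL and with HMOX1. TRPM7, IRS4 and other markers are named as checks. The 21 alternatives covered the filter, an offset of 16, quantile normalization, the variance trend, the arrays fitted, a replicate block, array weights, each array left out, and the replicate 3 arrays left out. Promoter windows were searched with Python 3.11.15, and figures drawn with matplotlib 3.10.9.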

Additional observations from a re-analysis of the deposited data

Results flagged for a closer look

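The response of FTL, measured by 212788_x_at, differed between the lines: the change with tetracycline in the WT line exceeded that in the mutant line by 0.76 on the log2 scale (limma interaction contrast, adjusted p = 0.0407). Every treated WT array was above every other array. The call was lost without any 1 of 10 arrays (adjusted p = 0.0566 to 0.157).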

How the results depend on the processing

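Of 1753 recomputed changes of member probe sets, 1678 kept their side of the threshold, 47 lost it, 28 gained it and 0 reversed a called direction. Most of these changes were not called in the main fit, among them all those of the mutant response. The share that kept its side therefore says little about how stable the calls were. Probe sets called in the WT response numbered 5005, against 1223 with only the WT arrays, 541 without the replicate 3 arrays and 2744 to 8077 with single arrays left out; members called were 3, against 2 in each of those first 2 alternatives, and 3 to 4 with single arrays left out. In the mutant response the count was 0, or 4 with array weights, and 0 to 0 with single arrays left out. For the difference of responses it was 41, against 8 with no filter, 89 with the 75th percentile filter, 76 with the offset, 15 with quantile normalization, 6 without trend, 2493 with array weights, 0 without the replicate 3 arrays and 0 to 2702 with single arrays left out. Members called there were 1, against 0 with no filter, quantile normalization, no trend or the replicate 3 arrays left out, 3 with array weights, and 0 to 3 with single arrays left out. Between untreated lines, 3807 probe sets were called, and 1717 without the replicate 3 arrays (1621 to 5369 with single arrays left out), and the member call was 0 with no filter, the 75th percentile filter (which left NQO1 untested), no trend or without the replicate 3 arrays (0 to 2 with single arrays left out). Between treated lines, 8151 were called, and 2771 without the replicate 3 arrays (5216 to 10245 with single arrays left out), with 4 members called, and 2 without those arrays (2 to 4 with single arrays left out). With the replicate block the counts were 5725 for the WT response, 0 for the mutant response, 76 for the difference, 4516 between untreated and 8993 between treated lines, with 3, 0, 1, 1 and 4 members. Without the replicate 3 arrays each group had 2 arrays; causes of the other shifts were not tested.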
